A study of Arabidopsis thaliana with 9 samples.

Results

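The genes described here build, export or regulate the plant cuticle, or belong to the families of lipid transfer proteins and acyl-processing enzymes around it. They were chosen by name alone: protein-coding genes of the deposited table whose symbol begins with KCS, CER, LACS, GPAT, LTP, CYP86A or CYP77A followed by a digit, or equals PDF1, HTH, DCR, SHN1, SHN2 or SHN3. The rule took 65 of the 38299 genes in the table, of which 27567 were protein coding. The members were 21 KCS, 7 CER, 8 LACS, 9 GPAT, 6 LTP, 5 CYP86A, 4 CYP77A and 3 SHN genes with PDF1 and HTH. No gene was named DCR, because the table gives that locus, AT5G23940, the symbol PEL3. For the same reason LTP1 (symbol LP1, AT2G38540) was not a member, and CER6 entered as KCS6. PEL3 and LP1 are given beside the members.

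The study sequenced RNA of Arabidopsis thaliana sepals in 3 genotypes with 3 libraries each, namely Col-0 as the wild type (WT) and 2 mutants, gir1-1 and atml1-3. For each library 200 sepals were pooled from 50 closed buds of floral stage 12, and all plants grew at 23 °C in continuous light with no other treatment and in 1 batch, per the labels. GIR1 encodes a small adaptor protein that links transcription factors to co-repressors, and ATML1 encodes a homeodomain transcription factor of the epidermis. The labels name the alleles without describing the lesions, and they do not say whether the 3 libraries of a genotype came from separate plantings, so p-values measure the spread between these pools of sepals, which may be technical.

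The cuticle covers the outer wall of epidermal cells and consists of cutin, a polyester of hydroxylated fatty acids and glycerol, with waxes in and on it. Waxes are made from very-long-chain fatty acids that the KCS enzymes elongate in the endoplasmic reticulum, while cutin monomers are made by CYP86A and CYP77A hydroxylases and GPAT acyltransferases from acyl-CoAs that LACS enzymes activate. In Arabidopsis flowers, cutin also forms the fine ridges of the cell surface, and ATML1 and its relatives recognise a short DNA element, the L1 box, near several epidermal genes.

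Library totals ran from 15328056 to 20148807 counts. In a principal component analysis the first component held 43.3% of the variance and gir1-1 replicate 3 had its lowest score, at -48.0, with the others between -21.0 and 27.8. GIR1 stood at 1.49, 2.19 and 4.29 CPM (counts scaled to a common library size by TMM) in WT, at 0.679, 0.61 and 0.344 in gir1-1 and at 0.88, 0.482 and 1.01 in atml1-3, so both mutants lay below WT. ATML1 stood at 29.9, 32.6 and 51.2 CPM in WT, at 24, 23.9 and 16.0 in gir1-1 and at 7.8, 16.6 and 15.9 in atml1-3, again with both mutants below WT. Neither gene passed the test in its own mutant (adjusted p = 0.385 for GIR1 and 0.365 for ATML1, edgeR quasi-likelihood test, Benjamini-Hochberg adjustment), whereas DESeq2 called both (adjusted p = 0.0374 and 0.00504). In the authors' deposited table the adjusted p was 0.0624 for GIR1 in gir1-1 and 0.00289 for ATML1 in atml1-3. All 6 sepal identity markers had counts, and their sum was 755 to 968 CPM in WT, 813 to 913 in gir1-1 and 771 to 972 in atml1-3. Of 15 tapetum markers, 6 were at 0 in every library, and the sum of the list was 14.5 to 25.5 CPM over the 9 libraries. The sum of 4 carpel markers was 4.19 to 5.05 CPM in WT, 5.3 to 6.77 in gir1-1 and 5.5 to 11 in atml1-3, so all 6 mutant libraries lay above all WT libraries, and its part in the members' values was not tested. The sums were 39.8 to 173 CPM for 4 pollen markers and 0.0 to 4.75 for 2 nectary markers, the last with at most 0.0982 in gir1-1.

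Most members were expressed in the sepal. Of the 65, 60 had at least 1 count and 51 passed the filter on low counts, whereas KCS7, KCS18, CYP77A4, SHN2 and CYP86A1 had no count in any of the 9 libraries. A count of 0 allows up to 3 counts, at most 0.189 CPM per library, and such limits cover counting error only. On the authors' FPKM scale, which divides by gene length, 9 members averaged over 100, 21 lay between 10 and 100, 18 between 1 and 10 and 17 below 1. The 5 members with the highest level took 67.3% of the summed FPKM. They were the lipid transfer protein genes LTP4 (mean 1003 FPKM, range 351 to 2318) and LTP3 (mean 995, range 560 to 1755), the wax condensing enzyme KCS6 (mean 462, range 307 to 619), the cutin acyltransferase GPAT6 (mean 281, range 175 to 381) and the alkane-forming enzyme CER1 (mean 274, range 206 to 356). The ranges of LTP4 and LTP3 overlapped, as did those of GPAT6 and CER1, and the lowest KCS6 library lay within the range of GPAT6. PDF1, a classic epidermal gene of young shoot tissue, averaged 0.25 FPKM and was not tested. Its counts were 11, 6 and 6 in WT, 0, 2 and 11 in gir1-1 and in atml1-3 5, 0 and 14. The members silent here include KCS18 (FAE1), known for seed oil elongation, and CYP86A1, known for root suberin. CYP77A5P averaged 15.8 FPKM, although the table describes it as a pseudogene while listing it as protein coding.

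**Figure D1:**
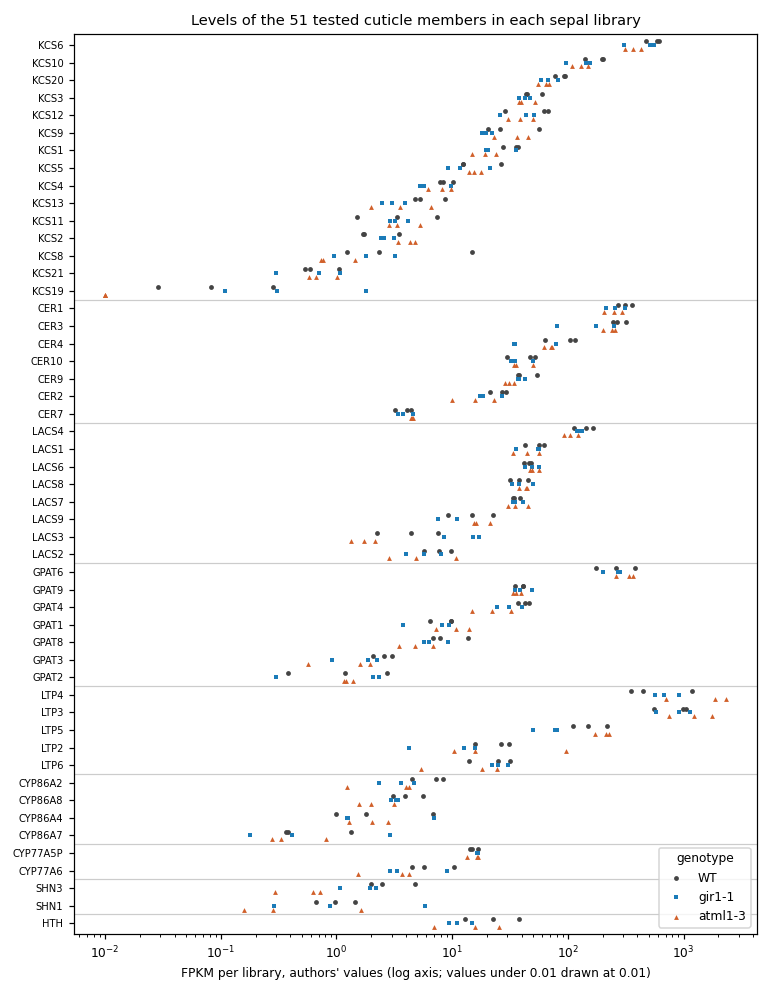
FPKM of the 51 tested members in each of the 9 libraries on a log axis, grouped by family, with WT as circles, gir1-1 as squares and atml1-3 as triangles. Within most members the 9 libraries spread far less than the full range across members, though members of similar level overlap. KCS19 has all 3 atml1-3 libraries at 0, drawn at 0.01.

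No member passed the test between either mutant and WT at an adjusted p under 0.05, in a setting where few genes did. In gir1-1 against WT, 0 of 51 members were called beside 0.0156% of all 19174 genes tested (3 genes), with the edgeR quasi-likelihood test and Benjamini-Hochberg adjustment over all genes. In atml1-3 against WT, 0 of 51 were called beside 0.0% of all genes. Without adjustment 5 members passed the 0.05 threshold of the edgeR test in gir1-1 (9.8% of members beside 7.52% of all genes). Of these, 1 was higher (beside 3.36% of all genes) and 4 were lower (beside 4.16%). With no filter on low counts it was 10 members (1 higher and 9 lower, beside 6.37% of all genes), and with DESeq2 11 (2 higher and 9 lower, beside 6.38%). In atml1-3 15 members did (29.4% beside 11.7%), of which 2 were higher (beside 5.5% of all genes) and 13 lower, that is 25.5% of members beside 6.22% of all genes. DESeq2 called LTP5 and LACS3 in gir1-1, 2 of its 54 members with an adjusted p beside 0.731% of all genes, and SHN3 in atml1-3, 1 of 51 beside 0.835%. In the authors' deposited table, LTP5 had an adjusted p under 0.05 in gir1-1 (0.454% of all genes did), and SHN3 and KCS8 had one in atml1-3 (1.24% of all genes). The unadjusted counts moved with single libraries, and so did the share of all genes, given here for both directions together. The 13 lower members became 4 without atml1-3 replicate 1 (beside 7.35%) and 8 without WT replicate 3 (beside 15.3%). They became 9 without WT replicate 1 (beside 7.85%) and 10 without atml1-3 replicate 3 (beside 8.54%). It was 14 without atml1-3 replicate 2 (beside 8.43%) and 14 without WT replicate 2 (beside 9.95%). The 4 lower members in gir1-1 became 1 without gir1-1 replicate 3 (beside 4.93%) and 1 without WT replicate 3 (beside 7.63%). They became 5 without gir1-1 replicate 1 (beside 8.75%) and 6 without gir1-1 replicate 2 (beside 7.57%). Without WT replicate 1 it was 7 (beside 8.61%), and without WT replicate 2 it was 8 (beside 7.32%).

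The sign of the values leaned to lower levels in both mutants. In gir1-1, 36 of 51 members had a log2 fold change below 0 (70.6%, beside 49.3% of all genes tested), and their median was -0.27 beside 0.00 for all genes. In atml1-3 it was also 36 of 51 (beside 51.1% of all genes), with a median of -0.32 beside -0.01. The median stayed at -0.32 with KCS19, whose atml1-3 libraries are all at 0, set to the bound of 3 counts per library. Both mutants were compared with the same 3 WT libraries, so the 2 medians are not independent. Without WT replicate 3 the medians were -0.17 in gir1-1 and -0.20 in atml1-3, and without gir1-1 replicate 3 the gir1-1 median was also -0.17. Without gir1-1 replicate 2, the 15 members with a log2 fold change above 0 in gir1-1 became 6. Groups without overlap were rarer: 3 members in gir1-1 (5.88% beside 10.5% of all genes) and 13 in atml1-3 (25.5% beside 18.5%). In gir1-1, 1 was higher (beside 5.17% of all genes) and 2 lower (beside 5.29%). In atml1-3, 1 was higher (beside 9.85%) and 12 lower, 23.5% of members beside 8.64% of all genes. The 12, like the 13 lower members with an unadjusted p under 0.05 by edgeR, include KCS19. It stood at 0.172, 0.0607 and 0.587 CPM in WT and at 0 in atml1-3. At the bound of 3 counts per library its groups would overlap, and its log2 fold change would be -0.68 rather than -5.31. Sepals are a mixture of cell types, and fewer epidermal cells and less RNA per epidermal cell cannot be told apart in these data.

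Single libraries stood apart within each genotype. The median log2 deviation of the members from the mean of the 9 libraries lay at 0.08, 0.10 and 0.49 in WT, at -0.03, 0.08 and -0.27 in gir1-1 and at -0.25, 0.06 and -0.11 in atml1-3, whereas that of all genes tested stayed between 0.00 and 0.02 in size. WT replicate 3 had the highest of the 9 values for 19 of 51 members (37.3%, beside 11.9% of all genes), and atml1-3 replicate 1 had the lowest for 22 (43.1%, beside 12.8%). The summed level of the epidermis markers had its extremes in the same libraries. Without ATML1, this sum stood at 50.8, 60.1 and 74.5 CPM in WT, at 53.3, 56.9 and 49.4 in gir1-1 and at 37.5, 53.5 and 48.2 in atml1-3, so WT replicate 3 was again the highest and atml1-3 replicate 1 the lowest. The 4 genes of that sum are PDF2, HDG2, ACR4 and ALE1, of which ALE1 was at 0 in every library. PDF2 held most of the sum, with 56.7 of 74.5 CPM in WT replicate 3. PDF2 and ACR4 each had both extremes in these libraries, whereas HDG2 was highest in gir1-1 replicate 2, at 4.7 CPM beside 3.7 in WT replicate 3. The part of the epidermis markers in the members' values was not tested. Within groups, the members' SD of log2 CPM had a median of 0.46 in WT, 0.37 in gir1-1 and 0.35 in atml1-3, beside 0.31, 0.28 and 0.23 for all genes.

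**Figure D2:**
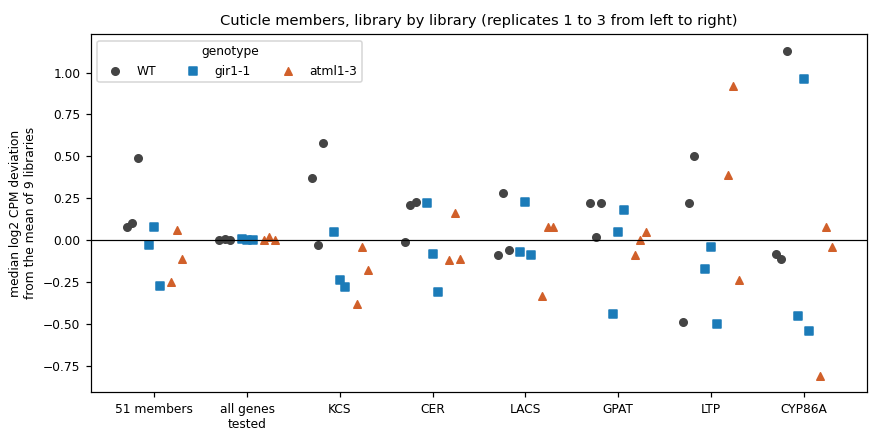
Median log2 deviation of CPM from the mean of the 9 libraries, for all 51 tested members, all genes tested and 6 families, with 1 point per library and replicates 1 to 3 from left to right within each genotype. WT replicate 3 reads 0.49 for the members while all genes lie at 0, and the LTP family is the only one of the 6 plotted with 2 atml1-3 libraries above 0.25.

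**Figure D3:**
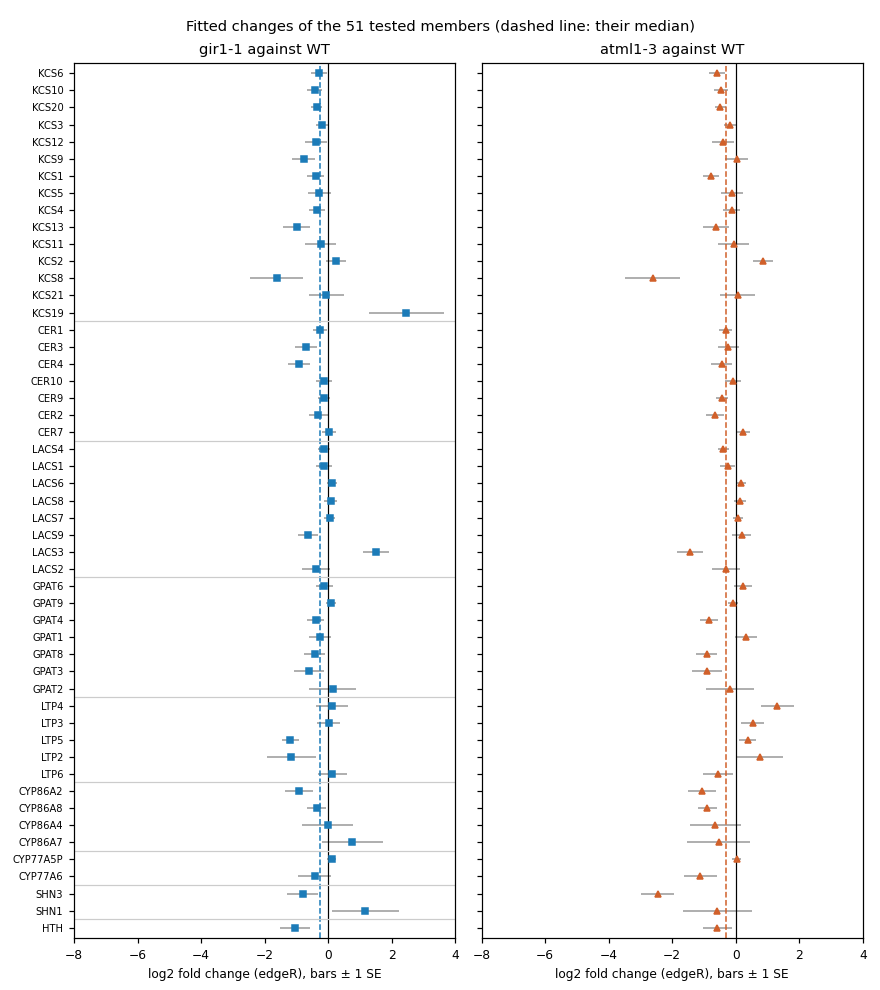
Log2 fold change of each tested member (horizontal axis, bars ± 1 SE from edgeR) in gir1-1 and atml1-3 against WT, grouped by family, with dashed lines at the medians of -0.27 and -0.32. Most points lie left of 0 by less than 1, and KCS19 is not drawn for atml1-3, where its libraries are all at 0.

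The SHN genes encode AP2/ERF transcription factors that activate cutin and wax genes. SHN3 (AT5G25390, chr5:8820458-8822062 on TAIR10.1, plus strand) stood at 2.63, 2.13 and 5.11 CPM in WT, at 2.38, 1.16 and 2.06 in gir1-1 and at 0.314, 0.675 and 0.776 in atml1-3. All 3 atml1-3 libraries were below every other library, while gir1-1 overlapped WT. For atml1-3 the log2 fold change was -2.46 (SE 0.52), and its adjusted p was 0.365 in the edgeR quasi-likelihood test and 0.00631 in DESeq2. The adjusted p in the authors' deposited table was 0.00635. Leaving out 1 library at a time gave log2 values from -2.70 to -1.99. SHN1 (WAX INDUCER 1) was low and uneven, at 1.14, 0.789 and 1.7 CPM in WT, at 0.339, 6.89 and 1.03 in gir1-1 and at 0.189, 0.337 and 1.91 in atml1-3. In gir1-1 its log2 fold change, 1.17 (SE 1.05), was -0.80 without gir1-1 replicate 2, the library at 6.89 CPM.

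That library was also high for the following genes, chosen after their values were seen. The hydroxylase gene CYP86A4 stood at 16.3 CPM in gir1-1 replicate 2 and at 2.88 and 2.9 in the other gir1-1 libraries, with WT at 2.29, 4.19 and 15.8. CYP86A7 stood at 5.55 CPM there, beside 0.339 and 0.786, and the elongase gene KCS19 at 3.78, beside 0.226 and 0.638. Other cutin genes went both ways there. The hydroxylase gene CYP77A6 stood at 19.1 CPM, beside 7.01 and 6.09 in the other gir1-1 libraries and 9.38 to 21.8 in WT. CYP86A2 had its highest gir1-1 value there, 10.4 CPM beside 8.09 and 5.2. By contrast HTH at 20.6 CPM and CYP86A8 at 7.93 had their lowest gir1-1 value in it, and GPAT8 at 12.7 was below all WT libraries. CUS2, a cutin synthase needed to keep sepal cuticular ridges, stood at 71.7 CPM there and between 2.52 and 9.98 in the other 8 libraries. Of the 2 petal and stamen markers, PI read 5.61 CPM in gir1-1 replicate 2, 4.0 in atml1-3 replicate 3 and 0.377 to 2.17 elsewhere, whereas AP3 read 40.4 in gir1-1 replicate 2, within the 21.3 to 65.9 of the other libraries. Their sum was 23.5 to 48.9 CPM in WT, 29.0 to 46.8 in gir1-1 and 47.8 to 69.9 in atml1-3, and their part in these values was not tested. The sum of the 4 pollen markers was highest in gir1-1 replicate 2, at 172.6 CPM, beside 49.6 and 61.0 in the other gir1-1 libraries. WT replicate 2 was close at 161.7 CPM, and the remaining libraries read 39.8 to 115.2. The part of pollen in these values was not tested either.

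The KCS genes encode the condensing enzymes of fatty acid elongation. Of 21 members 15 were tested, 13 of which had a log2 fold change below 0 in gir1-1 (median -0.35) and 12 in atml1-3 (median -0.41), with 0 called by edgeR in either. KCS6 (CER6, AT1G68530, chr1:25712414-25715024, minus strand), the main enzyme for the longest wax chains, stood at 1612, 1548 and 1244 CPM in WT, at 1444, 1358 and 801 in gir1-1 and at 822, 1128 and 954 in atml1-3. All atml1-3 libraries were below all WT libraries, and gir1-1 spanned both, with replicate 3 the lowest of the 9. The log2 fold changes were -0.29 (SE 0.24) in gir1-1 and -0.60 (SE 0.25) in atml1-3, with adjusted p of 0.835 and 0.401 by edgeR's quasi-likelihood test. KCS20, which acts with KCS2 in elongation, stood at 207, 173 and 212 CPM in WT, at 183, 131 and 148 in gir1-1 and at 124, 145 and 153 in atml1-3. Again atml1-3 lay wholly below WT and gir1-1 overlapped it, with log2 fold changes of -0.49 (SE 0.17) in atml1-3 and -0.36 (SE 0.17) in gir1-1.

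KCS1, a broadly acting elongase, gave the same order of means, at 73.1, 56.5 and 76.6 CPM in WT, at 73.9, 40.8 and 42.2 in gir1-1 and at 30.5, 49.5 and 39.7 in atml1-3, where its log2 fold change was -0.78 (SE 0.26). KCS13 (HIC), known for its role in stomatal response to carbon dioxide, stood at 16.4, 14.9 and 27.2 CPM in WT, at 7.81, 12.1 and 9.33 in gir1-1 and at 6.16, 20.7 and 11.2 in atml1-3. Here gir1-1 was the genotype wholly below WT, by a log2 fold change of -1.0 (SE 0.41), and atml1-3 overlapped it. In KCS13, 28.9% of the 50-base words of its exons occur elsewhere in the genome, so its counts may be shared with other loci. KCS8 stood at 4.52, 2.43 and 29.1 CPM in WT, at 1.87, 3.54 and 6.24 in gir1-1 and at 1.45, 2.89 and 1.49 in atml1-3. Its value in atml1-3 rests on WT replicate 3: the log2 fold change of -2.62 (SE 0.86) was -0.83 without that library, and in gir1-1 it went from -1.63 to 0.16. The adjusted p of KCS8 in atml1-3 was 0.0265 in the authors' deposited table and 0.374 by edgeR's quasi-likelihood test.

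KCS9, which elongates saturated very-long-chain acyl groups, stood at 43.7, 56.2 and 122 CPM in WT, at 48.1, 42.4 and 39.1 in gir1-1 and at 98.7, 50.3 and 78.5 in atml1-3. The mutants did not overlap each other, with gir1-1 below atml1-3, and both overlapped WT. KCS2 was the KCS gene with the largest log2 fold change above 0 in atml1-3, 0.86 (SE 0.32), from 3.43, 7.17 and 3.52 CPM in WT to 9.75, 8.92 and 6.98, with 1 WT library inside the atml1-3 range. It was picked after its values were seen, and 63.6% of its exon bases overlap exons on the opposite strand, so reads of both genes may be mixed where counting ignored strand.

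The CER genes act at several steps of wax synthesis and its control. All 7 were tested, and 6 had a log2 fold change below 0 in each mutant (medians -0.26 and -0.32), though in atml1-3 it was 5 when libraries were scaled by total counts. That scaling also moved the median of all genes in atml1-3 from -0.01 to 0.08. CER1 and CER3, which together form alkanes, had mean levels of 274 and 226 FPKM over the 9 libraries. CER1 stood at 967, 1285 and 1132 CPM in WT, at 1135, 925 and 761 in gir1-1 and at 901, 1066 and 744 in atml1-3, and both mutants overlapped WT. CER3 stood at 683, 644 and 824 CPM in WT, at 457, 656 and 210 in gir1-1 and at 626, 529 and 663 in atml1-3. Both mutants overlapped WT, and gir1-1 replicate 3 was the lowest library. The log2 fold change in gir1-1 was -0.70 (SE 0.34), -0.37 without replicate 3 and -1.10 without replicate 2. CER4, the reductase that makes primary alcohols, stood at 123, 204 and 227 CPM in WT, at 156, 68.6 and 67.4 in gir1-1 and at 122, 146 and 141 in atml1-3. In gir1-1 the log2 fold change of CER4 was -0.93 (SE 0.34, adjusted p = 0.594 by edgeR's quasi-likelihood test), and gir1-1 replicate 1 lay within WT.

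LACS enzymes activate free fatty acids to acyl-CoAs, and their median was close to 0 in both mutants (-0.04 and -0.09, with 4 of 8 below 0 in each). LACS4 had the highest level of the family, 125 FPKM, with a log2 fold change of -0.14 (SE 0.18) in gir1-1 and -0.39 (SE 0.18) in atml1-3. LACS3 (AT1G64400, chr1:23915570-23919835, minus strand) was the member in which the mutants lay farthest apart without overlap, leaving out KCS19. It stood at 10.6, 18.0 and 5.34 CPM in WT, at 40.4, 36.2 and 20.3 in gir1-1 and at 3.21, 5.16 and 4.12 in atml1-3. Every gir1-1 library was above every WT library and every atml1-3 library was below, a pattern that 21 of 19174 genes tested had (0.11%). The log2 fold changes were 1.51 (SE 0.41) in gir1-1 and -1.44 (SE 0.42) in atml1-3, with adjusted p of 0.442 and 0.372 by edgeR's quasi-likelihood test and 0.082 and 0.0632 in the authors' deposited table. Leaving out WT replicate 2, the highest of the WT libraries, gave 2.02 and -0.94. LACS9, the major plastid form, stood at 25.6, 63.7 and 41.4 CPM in WT, at 21.2, 31.3 and 31.1 in gir1-1 and at 43.7, 45.5 and 60.2 in atml1-3, so the mutants were apart while both overlapped WT. LACS1 and LACS2, the forms known from wax and cutin synthesis, had log2 fold changes of -0.14 (SE 0.25) and -0.39 (SE 0.45) in gir1-1, and of -0.26 (SE 0.25) and -0.31 (SE 0.45) in atml1-3.

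The CYP86A and GPAT families, which include enzymes of cutin synthesis, had most of their values below 0 in atml1-3. There all 4 tested CYP86A genes (median -0.76) and 5 of 7 tested GPAT genes (median -0.19) were lower, beside 51.1% of all genes. These are counts of genes by name and not of cutin enzymes. They include values smaller than their SE, namely CYP86A4 at -0.64 (SE 0.81), CYP86A7 at -0.54 (SE 0.98), GPAT2 at -0.19 (SE 0.75) and GPAT9 at -0.09 (SE 0.16). The corresponding medians in gir1-1 were -0.20 and -0.27, with 3 of 4 and 5 of 7 below 0 (beside 49.3% of all genes). GPAT4 (AT1G01610, chr1:221642-224351, minus strand), an acyltransferase of leaf and stem cutin, stood at 88.0, 71.4 and 81.5 CPM in WT, at 77.8, 59.8 and 46.4 in gir1-1 and at 28.5, 62.4 and 42.7 in atml1-3. All atml1-3 libraries were below WT (log2 fold change -0.85, SE 0.28, adjusted p = 0.372 by edgeR's quasi-likelihood test). GPAT8, which acts redundantly with GPAT4, stood at 15.8, 13.7 and 27.5 CPM in WT, at 11.5, 12.7 and 18.3 in gir1-1 and at 6.98, 13.7 and 9.66 in atml1-3. Its log2 fold change in atml1-3 was -0.91 (SE 0.33), or -0.54 without WT replicate 3, and the highest atml1-3 library was just below the lowest WT library. By contrast GPAT6, the acyltransferase of flower cutin and the family's highest in level, stood at 387, 847 and 582 CPM in WT, at 449, 628 and 595 in gir1-1 and at 581, 819 and 748 in atml1-3. All 3 genotypes overlapped, and its log2 fold changes were -0.12 (SE 0.28) and 0.24 (SE 0.28).

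CYP86A2 (ATT1), a fatty acid omega-hydroxylase, stood at 16.1, 10 and 18.4 CPM in WT, at 8.09, 10.4 and 5.2 in gir1-1 and at 2.77, 9.5 and 8.83 in atml1-3. The atml1-3 libraries lay below WT (log2 fold change -1.07, SE 0.44), and 41.0% of the gene's exon bases overlap exons on the opposite strand. CYP86A8 (LACERATA) stood at 10.2, 8.2 and 14.7 CPM in WT, at 8.65, 7.93 and 9.03 in gir1-1 and at 4.21, 8.39 and 5.25 in atml1-3, with a log2 fold change of -0.89 (SE 0.30) and slight overlap with WT. CYP77A6, the mid-chain hydroxylase of flower cutin, stood at 9.38, 12.0 and 21.8 CPM in WT, at 7.01, 19.1 and 6.09 in gir1-1 and at 3.27, 8.92 and 7.76 in atml1-3 (log2 fold change -1.11, SE 0.52, and -0.68 without WT replicate 3). In it atml1-3 was wholly below WT and gir1-1 spread across WT. These cutin genes include chromosomal neighbours: the genes of CYP86A4 and GPAT4 are 355 bases apart on chromosome 1, and those of CYP86A2 and GPAT8 are 10929 bases apart on chromosome 4. HTH (HOTHEAD), an oxidoreductase needed to keep floral organs from fusing, stood at 27.6, 49.3 and 81.6 CPM in WT, at 32.4, 20.6 and 23.7 in gir1-1 and at 15.3, 55.9 and 34.6 in atml1-3. In gir1-1 the value of HTH was -1.05 (SE 0.47) on the log2 scale, -0.59 without WT replicate 3, and the groups overlapped. PEL3 (DCR), an acyltransferase of cutin, had log2 fold changes of -0.48 (SE 0.27) in gir1-1 and -0.60 (SE 0.28) in atml1-3, and all genotypes overlapped.

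The LTP genes encode small secreted proteins that bind lipids. Of 6 members 5 were tested, with medians of 0.01 in gir1-1 and 0.53 in atml1-3, where 4 of 5 were above 0. LTP4 (AT5G59310, chr5:23924990-23925957, minus strand) stood at 291, 372 and 988 CPM in WT, at 468, 764 and 567 in gir1-1 and at 1552, 1948 and 591 in atml1-3. The 2 higher atml1-3 libraries were above all others, and replicate 3 lay inside the WT range (log2 fold change 1.31, SE 0.52, adjusted p = 0.393 by edgeR's quasi-likelihood test). The log2 value was 2.04 without WT replicate 3 and 0.96 without atml1-3 replicate 2. LTP3, its neighbour 2996 bases away, stood at 947, 1367 and 584 CPM in atml1-3 beside 430, 765 and 815 in WT, a log2 fold change of 0.53 (SE 0.36). LTP2 reached 108 CPM in atml1-3 replicate 2 and lay between 4.7 and 34.6 in the other 8 libraries. LP1 (LTP1), outside the members by its symbol, was higher in level than any of them at 1644 FPKM, with log2 fold changes of -0.09 (SE 0.29) and 0.07 (SE 0.29).

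LTP5 (AT3G51600, chr3:19138338-19139423, minus strand) was lowest in gir1-1. It stood at 211, 146 and 108 CPM in WT, at 75.6, 49.4 and 78.4 in gir1-1 and at 170.2, 212 and 222 in atml1-3. All gir1-1 libraries were below every WT and every atml1-3 library, and atml1-3 overlapped WT. For gir1-1 the log2 fold change was -1.19 (SE 0.26), and its adjusted p was 0.311 in the edgeR quasi-likelihood test and 0.0067 in DESeq2. The authors' deposited table gives 0.0274.

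**Figure D4:**
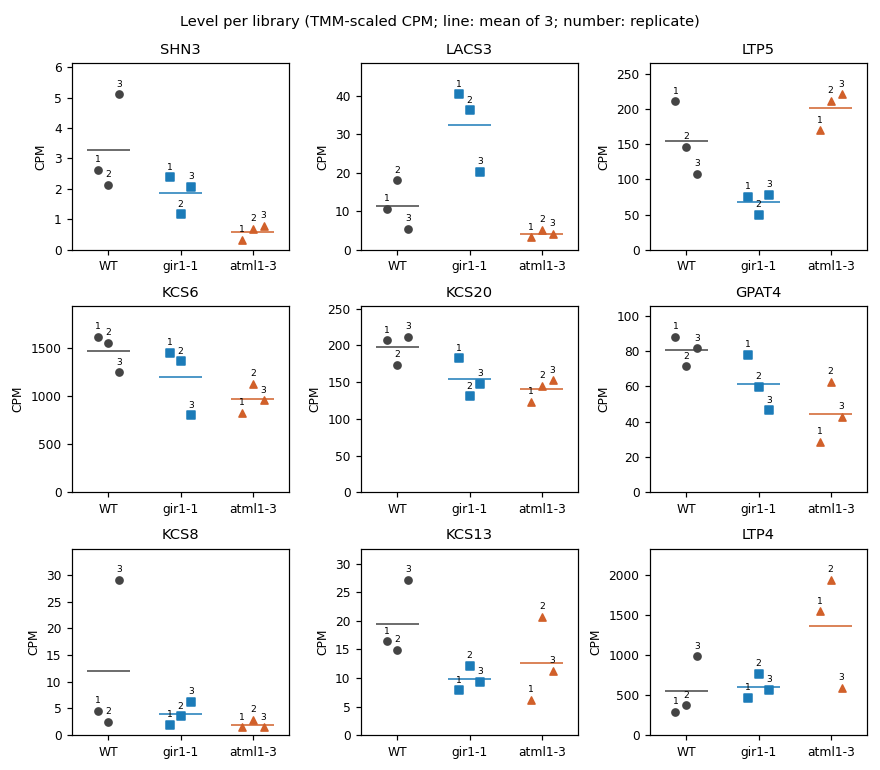
CPM of 9 members in each library, with the replicate number at each point and a line at the mean of the 3 libraries of a genotype. LACS3 and LTP5 separate gir1-1 from both other genotypes, SHN3 separates atml1-3, and the WT mean of KCS8 is set by replicate 3 at 29.1 CPM.

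In the direct comparison of the mutants the log2 differences set atml1-3 against gir1-1, and the WT libraries enter through the shared estimate of the spread. Of 51 members, 0 were called by the edgeR quasi-likelihood test and Benjamini-Hochberg adjustment, beside 0.0834% of all genes (16 genes). A fit of only the 2 mutants called 2, LACS3 (adjusted p = 0.0145, edgeR) and LTP5 (adjusted p = 0.0371, edgeR), beside 0.226% of all genes. Without adjustment 7 passed the 0.05 threshold (13.7% beside 7.35% of all genes), 4 of them higher in atml1-3 (beside 3.36%) and 3 lower (beside 3.99%). Without atml1-3 replicate 2 it was 3 higher and 6 lower, beside 6.37% of all genes in either direction. Without gir1-1 replicate 3 it was 2 higher and 4 lower, beside 5.6% of all genes in either direction. In 8 members the mutants did not overlap (15.7% beside 15%), with 4 higher in atml1-3 (beside 8%) and 4 lower (beside 7%). A log2 difference below 0 was found for 27 of 51 (beside 50.4%). The medians gave no common direction, at -0.04 for the members, which became 0.02 with scaling by total counts (beside 0.05 for all genes). LACS3 came nearest to the threshold, with a log2 difference of -2.95 (SE 0.44) and an adjusted p of 0.0544 by edgeR's quasi-likelihood test. The authors' deposited table gives LACS3 an adjusted p of 8.12e-17. LTP5 followed with 1.57 (SE 0.27) and 0.0728, for which the authors' deposited table has 3.8e-09. DESeq2 called LACS3, LTP5 and KCS19, 3 of its 54 members with an adjusted p beside 0.75% of all genes. The authors' deposited table has those 3 and LACS9 under 0.05, beside 1.31% of all genes. Other members with an unadjusted p under 0.05 were SHN3 (-1.65, SE 0.52), LACS9 (0.84, SE 0.30), LTP2 (1.92, SE 0.78) and LTP4 (1.18, SE 0.51). For LTP2 the difference was 0.28 without atml1-3 replicate 2. KCS19 had 0 counts in all 3 atml1-3 libraries, which allows up to 0.189 CPM, and 0.226, 3.78 and 0.638 CPM in gir1-1.

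A further list of 25 genes of cuticle synthesis, export and control, not taken by the naming rule, was described in the same fit. Of 23 tested, 0 were called by edgeR in any of the 3 comparisons (beside 0.0156%, 0% and 0.0834% of all genes), and DESeq2 called 1, LTL1 in gir1-1 (beside 0.731%). In gir1-1, 18 of 23 had a log2 fold change below 0 (78.3% beside 49.3% of all genes, median -0.31). An unadjusted p under 0.05 was found for 7 (30.4% beside 7.52%), of which 1 was higher (4.35% beside 3.36%) and 6 were lower (26.1% beside 4.16%). The list was chosen with earlier results of these data known, and how far this count rests on single libraries was not tested. In atml1-3, 20 of 23 were below 0 (87.0% beside 51.1% of all genes, median -0.15 beside -0.01 for all genes). When libraries were scaled by total counts it was 17, with a median of -0.06 beside 0.08 for all genes. There 3 had an unadjusted p under 0.05 (13.0% beside 11.7%), all of them lower (beside 6.22% of all genes lower). In the direct comparison 1 did (4.35% beside 7.35%). ABCG32, an exporter of cutin precursors, stood at 159, 159 and 179 CPM in WT, at 139, 128 and 87.1 in gir1-1 and at 85.6, 131 and 97.0 in atml1-3. Both mutants were wholly below WT, with log2 fold changes of -0.49 (SE 0.21) and -0.66 (SE 0.21). The gir1-1 value of ABCG32 was -0.31 without gir1-1 replicate 3.

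MYB96, an activator of wax genes, stood at 42.8, 41.2 and 37.1 CPM in WT, at 32.7, 29.6 and 35.4 in gir1-1 and at 29.2, 31.7 and 30.7 in atml1-3. In it too the mutants did not overlap WT, at log2 fold changes of -0.31 (SE 0.13) and -0.40 (SE 0.13). MYB16, a MIXTA-like regulator of epidermal cell shape and cuticle, had values of -0.64 (SE 0.27) and -0.83 (SE 0.27), and HDG1, a relative of ATML1, had -0.60 (SE 0.20) and -0.40 (SE 0.20), with overlap in both. CER5, an exporter of wax, had 0.01 (SE 0.23) in gir1-1 and -0.48 (SE 0.23) in atml1-3. LTL1, a GDSL lipase, stood at 1.49, 0.364 and 6.75 CPM in WT and at 0.339, 0.244 and 0.147 in gir1-1, below WT only after scaling. Its counts were few, at 26, 6 and 115 in WT and 6, 4 and 3 in gir1-1, so WT replicate 2 and gir1-1 replicate 1 were equal. The log2 fold change of LTL1 in gir1-1, -3.53 (SE 0.97), was -1.91 without WT replicate 3. CUS2 had 2.07 (SE 0.92) in gir1-1 and -0.06 without gir1-1 replicate 2.

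The L1 box was looked for in the 250 bases upstream of each gene start, as TAAATGCA or TAAATGTA on either strand. It occurred in 5 of 65 members (7.69%), namely KCS10, KCS18, KCS9, LACS6 and LACS9, beside 4.49% of 27443 protein-coding genes, and in 4 of the 51 tested. In 1000 bases the counts were 12 members (18.5%) beside 15.8% of all. The upstream sequences of KCS10, KCS9 and LACS9 are shown as matches next to genes described above, and that of SHN3 because its level was the lowest relative to WT among the members without overlap in atml1-3, KCS19 left aside. Each runs 5′ to 3′ on the gene's own strand, from RefSeq TAIR10.1, with the match in capitals. KCS10 lies at chr2:11173279-11173528 (minus strand), KCS9 at chr2:7050549-7050798 (plus strand), LACS9 at chr1:29152396-29152645 (minus strand) and SHN3 at chr5:8820208-8820457 (plus strand).
KCS10: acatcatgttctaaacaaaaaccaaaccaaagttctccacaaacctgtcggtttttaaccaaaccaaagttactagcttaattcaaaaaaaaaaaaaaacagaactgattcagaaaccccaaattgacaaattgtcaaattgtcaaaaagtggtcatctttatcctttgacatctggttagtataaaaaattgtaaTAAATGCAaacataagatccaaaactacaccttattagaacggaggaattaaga
KCS9: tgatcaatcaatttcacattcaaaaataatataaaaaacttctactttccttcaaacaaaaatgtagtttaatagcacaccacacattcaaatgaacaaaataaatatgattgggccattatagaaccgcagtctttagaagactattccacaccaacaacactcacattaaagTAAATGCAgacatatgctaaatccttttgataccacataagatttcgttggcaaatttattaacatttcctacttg
LACS9: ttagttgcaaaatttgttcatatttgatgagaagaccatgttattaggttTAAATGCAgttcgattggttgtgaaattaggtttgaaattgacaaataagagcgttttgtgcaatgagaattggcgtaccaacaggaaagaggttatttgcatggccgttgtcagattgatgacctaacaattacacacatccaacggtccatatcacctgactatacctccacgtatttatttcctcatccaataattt
SHN3: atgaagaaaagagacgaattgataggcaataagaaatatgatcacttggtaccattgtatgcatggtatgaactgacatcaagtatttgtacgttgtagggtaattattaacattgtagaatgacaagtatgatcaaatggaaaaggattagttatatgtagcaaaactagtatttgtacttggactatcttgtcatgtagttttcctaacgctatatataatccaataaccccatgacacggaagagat

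The matches start 54 bases before the gene start in KCS10, 76 in KCS9 and 200 in LACS9, and SHN3 has no match in its 250 bases. KCS10 (FIDDLEHEAD), which keeps epidermal surfaces from fusing, stood at 442, 317 and 454 CPM in WT, at 327, 355 and 219 in gir1-1 and at 247, 338 and 293 in atml1-3. Its log2 fold changes were -0.43 (SE 0.23) and -0.47 (SE 0.23), with overlap between the genotypes, and it was named after its values were seen. In atml1-3 the 3 other tested genes with a match had log2 fold changes above 0, at 0.03 (SE 0.36) for KCS9, 0.17 (SE 0.15) for LACS6 and 0.19 (SE 0.30) for LACS9. A match to these letters is a description of the window and not evidence of binding.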

How the data were processed

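The authors deposited 1 table with raw read counts per gene for each of 9 sepal libraries and with FPKM values, which they scaled by gene length and library size. Per the file headers, it also holds the authors' log2 fold changes, p-values and adjusted p-values between the genotypes. The genome build was TAIR10, per the submitters' processing notes, and the aligner, counting program and use of strand are not given in the sources used here. Table coordinates equal those of RefSeq TAIR10.1 for 38286 of 38299 genes.

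Counts as deposited were tested with edgeR 4.0.16 (quasi-likelihood F test, R 4.3.3) in 1 fit of all libraries with genotype as the only factor, TMM scaling and filterByExpr defaults, which kept 19174 genes. P-values were adjusted by Benjamini-Hochberg over all of them, with a threshold of 0.05, and SEs are the log2 fold change over the square root of F. DESeq2 1.42.0, other scalings, no filter on low counts, fits of only the 2 genotypes, a replicate block and fits without each library were alternatives. As a check of the code, edgeR was run on simulated counts with 200 changed genes. Their changes were large and their spread was smaller than in these data, so the check does not show what could be detected here. All pairs of libraries within a genotype differed beyond counting noise (chi-square per degree of freedom at least 26.3), so none is a copy of another. Each was counted as 1 replicate, though this check cannot show that the libraries came from separate plantings. The biological coefficient of variation was 0.301.

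The members and gene lists were chosen with earlier results of these data known. Named genes are PDF1, HTH, the SHN genes, CER1, CER3, KCS6, the 8 members with the smallest p in each comparison, the family member with the highest FPKM, and the 3 further cuticle genes with the smallest p per comparison. The rest were named after their values were seen.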

Additional observations from a re-analysis of the deposited data

Results flagged for a closer look

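LACS3 differed between the mutants in the sense that each moved to its own side of WT: every gir1-1 library was above and every atml1-3 library below all 3 WT libraries. The direct log2 difference of atml1-3 against gir1-1 was -2.95 (SE 0.44). It did not pass the edgeR quasi-likelihood test (Benjamini-Hochberg adjusted p = 0.0544). LACS3 in atml1-3 against gir1-1 had adjusted p of 0.0649 to 0.302 by edgeR with 1 library left out at a time, and all 3 atml1-3 libraries lay below all 3 gir1-1 libraries.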

How the results depend on the processing

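The number of members called by edgeR was 0 in all 3 comparisons with either other scaling and without any 1 library. For atml1-3 against gir1-1 it became 2 with no filter on low counts, 2 with only the 2 genotypes in the fit (LACS3 and LTP5 in both) and 3 with DESeq2. In gir1-1 against WT, DESeq2 called 2 members and 1 further cuticle gene (LTL1), and in atml1-3 against WT 1 member. Over all genes DESeq2 called 152 for gir1-1 against WT, 157 for atml1-3 against WT and 156 for the direct comparison, where edgeR called 3, 0 and 16. The cause of these shifts was not tested.

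With the replicate number as a block, 1 member (LACS3) was called in atml1-3 against gir1-1, 0 in the other comparisons, and the calls over all genes went from 16 to 20, from 3 to 1 and stayed at 0. Same-numbered libraries correlated between -0.174 and 0.121 in their deviations from the group means, so the numbers were not taken as pairs.

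Of 837 values of named genes under alternatives, 814 kept their direction and side of the threshold, 14 passed it in addition and 9 changed sign. None of these genes passed in the main fit, so keeping the side of the threshold meant staying uncalled and says nothing about a difference. CER1 in atml1-3 against gir1-1 was 0.00 with total counts and -0.19 to 0.09 with 1 library left out. The corresponding ranges were -0.03 to 0.83 for HTH and -3.32 to 0.22 for SHN1 in that comparison. In gir1-1 against WT they were -0.06 to 2.60 for CUS2, -1.20 to 1.63 for CYP86A7, -2.15 to 0.16 for KCS8 and -0.80 to 1.70 for SHN1. The median of the members stayed below 0 in both mutants under every alternative run. Members near or under 1 CPM in most libraries, such as SHN1, KCS19 and PDF1, rest on few counts, where changes of moderate size are not detectable.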
